A study of Mus musculus with 12 samples.

Results

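Tight junction genes of the blood-retinal barrier were followed in mouse retina 7 days after nanoparticles were injected into the vitreous. The genes were Cldn5, Cldn1, F11r, Ocln, Marveld2, Tjp1 and Cgn. They were taken by name, as every probe whose transcript accession belongs to 1 of these 7 genes. The array carried 8 such probes among 39429, and each of the 7 genes entered the fit over 23063 genes. The tubes held retinas of male C57BL/6 mice, injected at 5 weeks of age in the right eye with phosphate-buffered saline (PBS), with gold particles of 20 or 100 nm, or with silicate particles of 20 or 100 nm. Each group had 12 mice, and with 4 retinas to a tube this left 3 tubes per group. Each of 12 arrays set the RNA of a particle tube, in Cy5, against the RNA of a PBS tube, in Cy3. The dyes were never exchanged, so a dye effect of a probe is part of every ratio against PBS and cannot be told apart from it. The labels give the strain of some PBS channels with other numbers after C57BL, and a size unit of nM in place of nm. Both were read as in the growth protocol.

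Tight junctions seal the space between neighbouring cells. Claudins form the strands that close it, F11r (JAM-A) and the MARVEL proteins Ocln (occludin) and Marveld2 (tricellulin) lie in the same membrane contacts, and Tjp1 (ZO-1) and Cgn (cingulin) tie these proteins to actin and the cell cortex. The retina has an inner barrier in the endothelium of its vessels, where Cldn5 is the main claudin, and an outer barrier in the pigment epithelium. Junctions also join epithelial cells of the ciliary body and of the ocular surface.

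All values below are log2 ratios of particle over PBS, above 0 where the particle tube was higher, or log2 intensities of a single channel after normalization, called levels. Adjusted p-values come from limma with Benjamini-Hochberg adjustment over all genes, with a threshold of 0.05. They measure the spread between arrays of pooled retinas, which the fit without a block takes as independent. The 3 arrays of a group lay on 3 slides, and each slide held 1 array of every group. Where 4 values of a slide follow each other below, they stand in the order gold (20 nm, then 100 nm) and silicate (20 nm, then 100 nm). Deviations from the group means correlated across genes by 0.889 to 0.934 between the arrays of slide 1, 0.0818 to 0.831 on slide 2 and 0.552 to 0.920 on slide 3. Calls are therefore given also with slide as a random block, which lets the arrays of a slide share a deviation. The fit with the replicate number as a fixed block takes the differences between slides out of the error. With 1 PBS tube assumed per slide, its p-values against PBS leave out the spread between PBS tubes and can be too small. The 4 comparisons of a particle group with PBS were taken to share the PBS material of a slide. They are not read as independent of each other. As a check of the tissue label, 20 rod markers were all well above background in both channels on every array. In pooled tissue, fewer cells of a type and less RNA per cell cannot be told apart.

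Before the single genes, 2 arrays need naming. On slide 3 both silicate tubes stood apart. The median of 17 macrophage and microglia markers was 3.21 (20 nm) and 3.54 (100 nm) there, against -0.34 and -0.69 in the gold tubes of that slide. On slide 1 the same medians were -2.25, -2.77, -1.38 and -2.34. On slide 2 they were 1.02, 0.51, 0.37 and 0.21. The PBS channel of slide 1 carried the markers at a summed level of 17.82 to 17.88, above the 15.47 to 15.94 of slides 2 and 3. Results that change without both silicate arrays of slide 3 are given in that form too.

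Over the 4 particle groups together, the adaptor Cgn was higher than PBS by 0.37 and the epithelial claudin Cldn1 by 0.30. Cldn1 was near background in PBS and entered the fit only through the particle channels of gold 100 nm and silicate 20 nm. No member was called lower. Both calls were lost with slide as a random block (adjusted p = 0.409 for Cldn1 and 0.354 for Cgn). These 2 of 7 members compare with 15% of all genes called in this comparison, 8.53% higher and 6.42% lower. The endothelial claudin Cldn5 had a mean of -0.38, below PBS on 10 of 12 arrays, and missed the threshold narrowly (adjusted p = 0.0505). At an unadjusted p under 0.05 there were 4 members, with Tjp1 as the fourth, against 30.2% of all genes. The median over the 7 members was 0.11, and over all genes -0.01. With slide as a random block, 1.71% of genes and 0 members were called, and 1 member had an unadjusted p under 0.05, as 12.8% of all genes had. The count of members was also 0 when the arrays of slide 1 or of slide 2 were left out, and it was 4 without those of slide 3. With the replicate number as a fixed block, 4 members and 35.1% of all genes passed. No member passed the threshold in a single group against PBS, where 0.702% of all genes did in gold 20 nm, 0.989% in gold 100 nm, 2.1% in silicate 20 nm and 0.989% in silicate 100 nm. In the same order, 0, 3, 2 and 2 members had an unadjusted p under 0.05, beside 8.85%, 12.2%, 15.5% and 10.9% of all genes. The split of called genes over all particles depended on the scaling. It was 57% higher with loess, 30.1% with the scanner software's processed signals and 75.8% with median centring, while the median over all genes moved by less than 0.1 on the log2 scale.

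**Figure D1:**
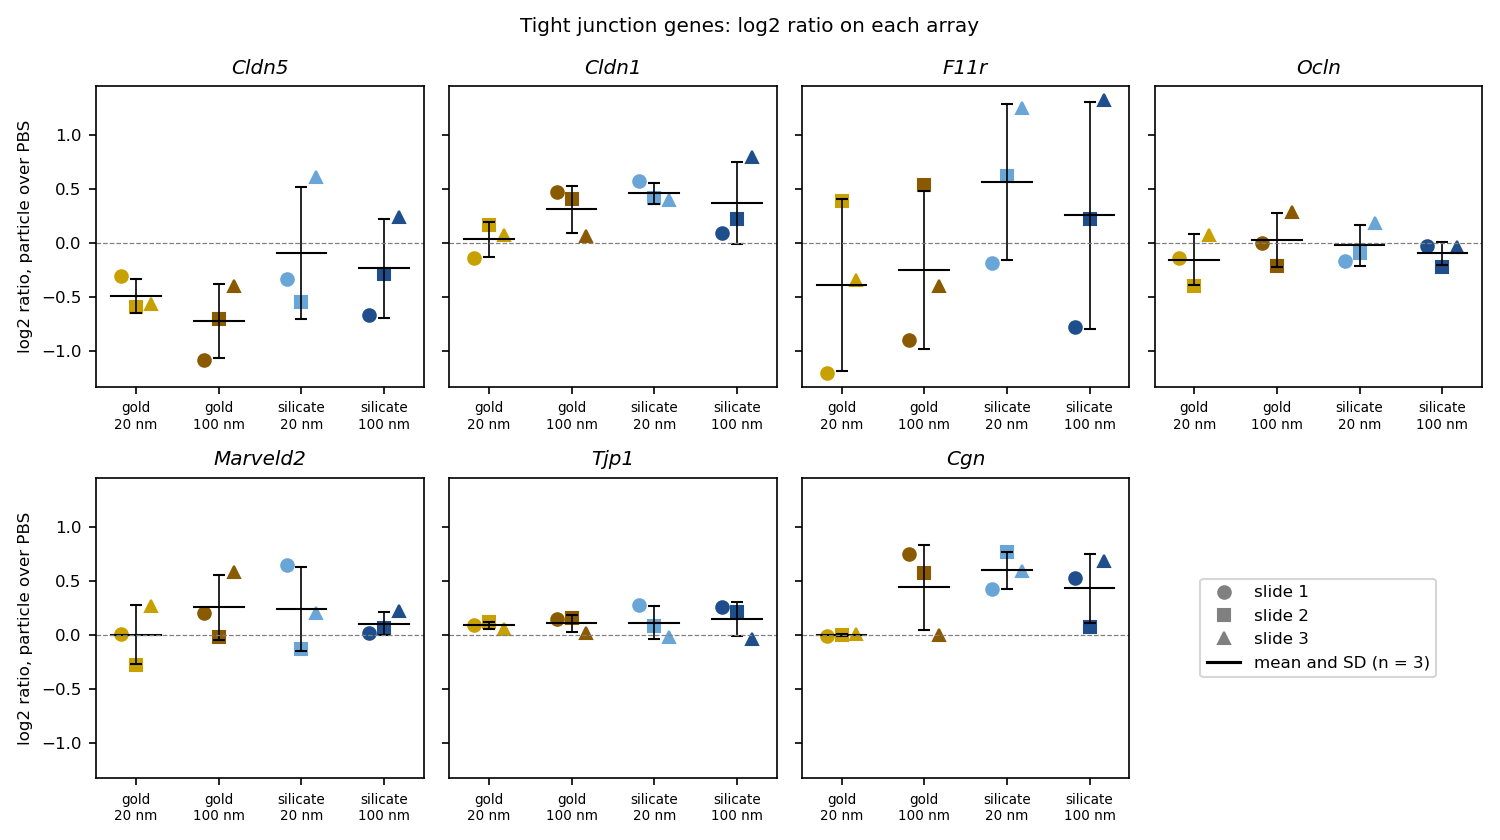
Log2 ratio of particle over PBS (vertical axis) on each of the 12 arrays for the 7 genes, by particle group (horizontal axis) and slide (symbol), with the mean and SD of 3 arrays. Cldn5 lies below 0 on all arrays but both silicate arrays of slide 3, Cgn lies on 0 in all gold 20 nm arrays and above 0 in every silicate array, and F11r spans the widest range, from -1.20 to 1.33.

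Cldn5 makes the strands of the endothelial barrier and is the claudin most tied to the inner blood-retinal barrier. Its level in the PBS channel was 11.00 to 11.05 on slide 1, 10.85 to 10.90 on slide 2 and 10.63 to 10.78 on slide 3. In the particle tubes of slide 1 it was 9.92 to 10.75 and in those of slide 2 10.20 to 10.58. The PBS values of a slide were taken to come from 1 tube and are not replicates. The log2 ratio was -0.30, -0.58 and -0.56 in gold 20 nm on slides 1, 2 and 3. Gold 100 nm gave -1.07, -0.70 and -0.39. The gold tubes were thus below their PBS tubes on 6 of 6 arrays, for which no share over all genes was taken. Silicate 20 nm gave -0.33, -0.54 and 0.61, and silicate 100 nm gave -0.66, -0.28 and 0.25. The only values above 0 were those of the 2 silicate tubes of slide 3, named above for their macrophage markers.

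In order, the group means of Cldn5 were -0.72 ± 0.34 for gold 100 nm, -0.48 ± 0.16 for gold 20 nm, -0.23 ± 0.46 for silicate 100 nm and -0.09 ± 0.61 for silicate 20 nm (SD, n = 3). Neighbours in this order differed by less than the larger of their SDs. The lowest, gold 100 nm, corresponds to a 1.65-fold lower level, with an adjusted p of 0.220 and an unadjusted p of 0.0103. It passed only in the fit with the replicate number as a block (adjusted p = 0.0445), a fit that called 6.83% of all genes in this comparison. Over the 4 groups, the mean of -0.38 had a standard error of 0.11, and 12.8% of all genes were below 0 on 10 or more arrays. Without both silicate arrays of slide 3 the mean was -0.53, with an adjusted p of 0.00470 in the fit without a block. Without the arrays of slide 1 or of slide 2, Cldn5 was not called. Its slide means were -0.59, -0.53 and -0.02 on slides 1, 2 and 3. Over 14 alternatives to the fit the mean ran from -0.56 to -0.28, and 6 of them called it. With slide as a random block, the adjusted p over all 12 arrays was 0.444. Gold minus silicate was -0.19 on slide 1, -0.23 on slide 2 and -0.91 on slide 3. The slides agree in sign, yet most of the size came from slide 3, and the material difference of -0.44 had an interval of -0.95 to 0.06 (adjusted p = 0.881, and 0.315 with the random block).

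**Figure D2:**
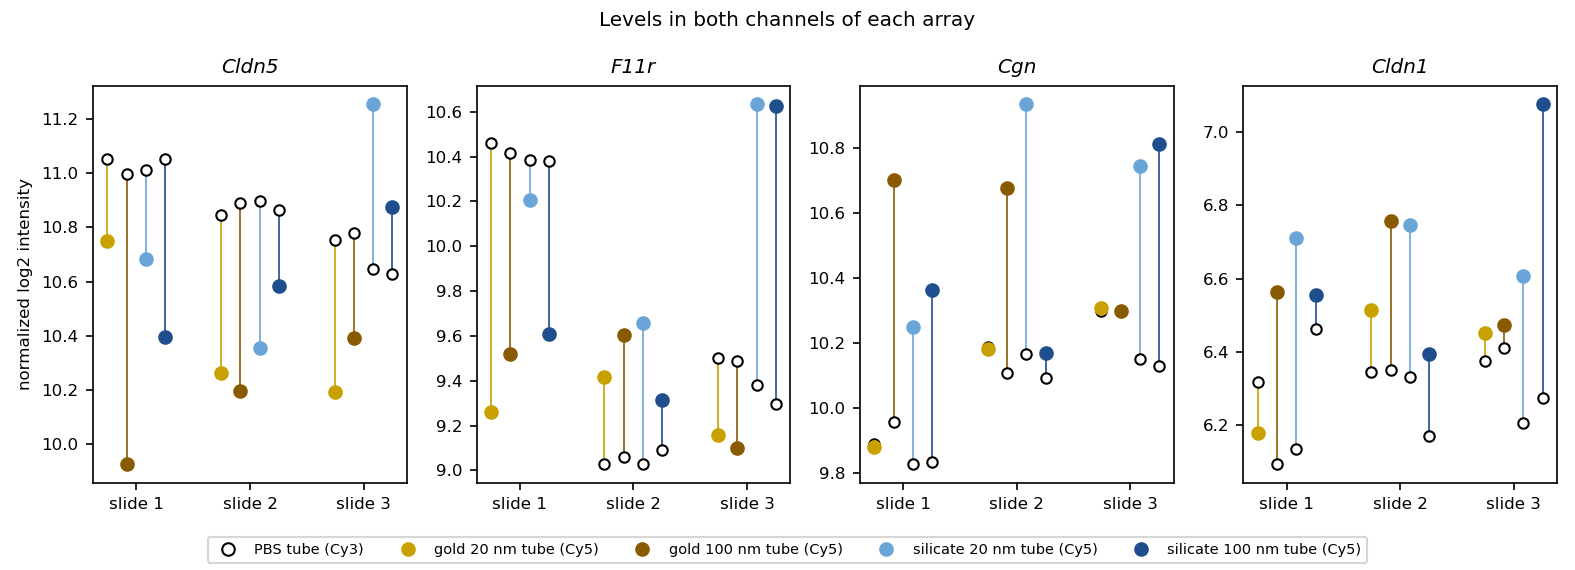
Normalized log2 intensity (vertical axis) of Cldn5, F11r, Cgn and Cldn1 in the PBS channel (open circles) and the particle channel (filled circles) of each array, by slide (horizontal axis), with a line joining the channels of an array. For Cldn5 the filled circles lie under the open ones in 10 of 12 arrays, and for F11r the PBS circles of slide 1 lie at 10.38 to 10.46 while those of slides 2 and 3 lie at 9.03 to 9.50. The vertical axes differ between genes.

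As a group, the other endothelial genes did not move as Cldn5 did on every slide. A list of 14 endothelial markers, which includes the receptors Kdr, Flt1, Tek and Tie1 and the adhesion molecule Pecam1, was well above background in both channels on every array. The list's median ratio on slide 1 was -1.03, -1.06, -1.02 and -1.13. On slide 2 it was -0.04, -0.14, -0.03 and -0.03, and on slide 3 it was -0.14, -0.11, 0.71 and 1.34. Its summed level spanned 14.78 to 15.66 in the PBS channels and 14.30 to 15.96 in the particle channels. Cldn5 lay below the list's median on 9 of 12 arrays. On slide 2 it lay below all 14 markers on each of the 4 arrays, at a distance from the median of -0.55, -0.56, -0.51 and -0.25. On slide 1 the distance was 0.73, -0.02, 0.69 and 0.47, so that Cldn5 was nearer to 0 than the median there on all arrays but that of gold 100 nm. On slide 3 it was -0.42, -0.28, -0.10 and -1.09. Over the 4 groups, 1 of the 14 markers was called, the vascular growth factor receptor Flt1, with a mean of -0.42 (adjusted p = 0.0206, and 0.265 with the random block). All 14 together had a median of -0.21. The lowest mean of the list was that of Vwf (-0.69, adjusted p = 0.186, and 0.558 with the random block). Like Cldn5, Vwf was below 0 on all but the silicate arrays of slide 3. On slide 2 Vwf stood at -0.30, -0.65, -0.53 and -0.28, against -0.58, -0.70, -0.54 and -0.28 for Cldn5. Whether a shift in endothelial content takes part in the Cldn5 ratios was not tested.

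**Figure D3:**
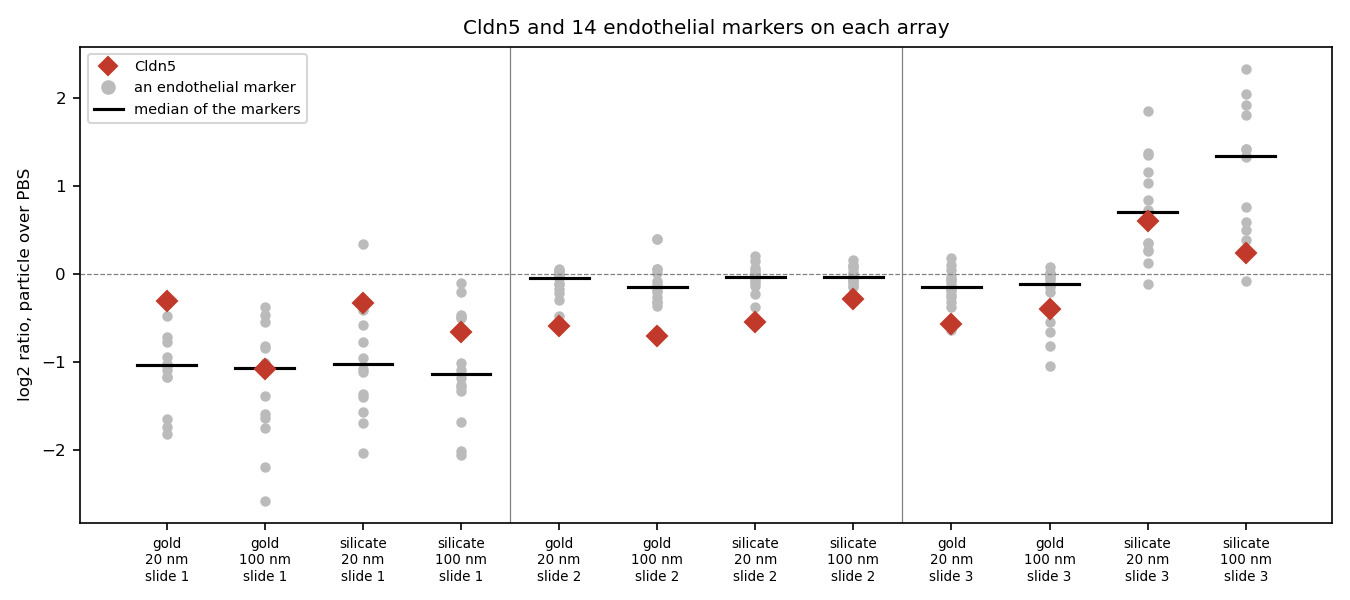
Log2 ratio of particle over PBS (vertical axis) for Cldn5 (diamonds) and 14 endothelial markers (grey points, median as a bar) on each array (horizontal axis). The markers are low on slide 1, near 0 on slide 2 and high in the silicate arrays of slide 3, whereas Cldn5 is below all 14 markers on the 4 arrays of slide 2.

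Cldn1 is a claudin of epithelia, needed for the skin barrier and present in surface epithelia of the eye. Its probe was dim. No PBS channel (0 of 12) held it well above background, and 8 of 12 particle channels did, namely all 3 arrays of gold 100 nm, all 3 of silicate 20 nm and 1 of 3 in each other group. A tested probe had to be well above background in 1 channel on all 3 arrays of a group. Cldn1 met this only in particle channels, so the filter favoured a higher ratio. Without this filter the adjusted p over the 4 groups was 0.0173 in the fit without a block. The ratio was -0.14, 0.17 and 0.08 in gold 20 nm, 0.47, 0.41 and 0.06 in gold 100 nm, 0.58, 0.42 and 0.40 in silicate 20 nm and 0.09, 0.22 and 0.80 in silicate 100 nm, on slides 1, 2 and 3. The particle channel was the higher one on 11 of 12 arrays, which 7.83% of all genes reached.

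Because PBS was never well above background, a fold of Cldn1 is a lower bound in groups whose particle channels all were. This bound covers neither the spread between tubes nor a dye effect. It was taken against the level of the probe itself in the PBS channel, since this was higher than that of the dimmest probe measured above background. It was at least 1.24-fold higher in gold 100 nm and at least 1.38-fold higher in silicate 20 nm. Over the 4 groups the measured fold was 1.23, with an adjusted p of 0.0156 (0.409 if slide is a random block). That fold is not a bound, since on 4 arrays neither channel was well above background. The size depends on the handling of low signals. The mean was 0.30 after the offset added here, 0.81 with the processed signals (adjusted p = 0.0509) and 0.86 in the deposited value table (adjusted p = 0.0492). Without the arrays of slide 1 or slide 2 the adjusted p was 0.0714 or 0.220.

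Markers of the ocular surface were measured beside Cldn1. Of 18 corneal and conjunctival epithelium markers, 15 were tested and at least 11 were well above background in a channel of every array. Their median ratio was 0.53, 1.03, 2.02 and 0.95 on slide 1, 0.04, 0.38, 0.80 and 0.14 on slide 2 and -0.61, -0.40, 0.24 and 0.08 on slide 3. Their summed level spanned 15.13 to 15.81 in PBS and 15.08 to 16.72 in particle channels. The highest list median, 2.02, was in silicate 20 nm on slide 1, where Cldn1 was at 0.58. The highest Cldn1 ratio, 0.80, was in silicate 100 nm on slide 3, where the list median was 0.08. The part of these cells in the Cldn1 ratio was not tested.

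F11r is the junctional adhesion molecule A, an immunoglobulin-type protein of endothelial and epithelial contacts that platelets and leukocytes carry too. It varied most of the 7 genes, with an SD of 0.82 over the 12 arrays, larger than in 93.7% of all genes. The ratio was -1.20, -0.90, -0.18 and -0.77 on slide 1, 0.39, 0.54, 0.63 and 0.23 on slide 2 and -0.34, -0.39, 1.25 and 1.33 on slide 3. All 4 arrays were thus below 0 on slide 1 and above 0 on slide 2, and the materials parted on slide 3. The PBS channel stood at a mean of 10.41 on slide 1, 9.05 on slide 2 and 9.42 on slide 3. In the gold tubes the level stayed between 9.10 and 9.60 on all 3 slides. The silicate tubes reached 10.63 and 10.62 on slide 3.

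The mean of F11r over the 4 groups was 0.05, with 6 arrays above and 6 below 0 (adjusted p = 0.906, and 0.970 with the random block). No effect common to the particles was detectable at this spread, and the interval of -0.44 to 0.54 leaves room for a change of either sign. Gold minus silicate was -0.73 over all slides, with an interval from -1.71 to 0.25 (adjusted p = 0.881, and 0.320 with the random block). By slide it was -0.57, 0.04 and -1.66, so it was near 0 on slide 2. On each slide F11r had the sign of the macrophage and microglia median given above, on 12 of 12 arrays. Arrays of a slide were taken to share PBS material, so these signs are not read as 12 independent observations. No share over all genes was taken. The median of 9 neutrophil markers was -3.22 to -3.05 on slide 1, -0.08 to 0.89 on slide 2 and, in the silicate tubes of slide 3, 2.36 and 2.95. The part of leukocytes in the F11r ratio was not tested.

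**Figure D4:**
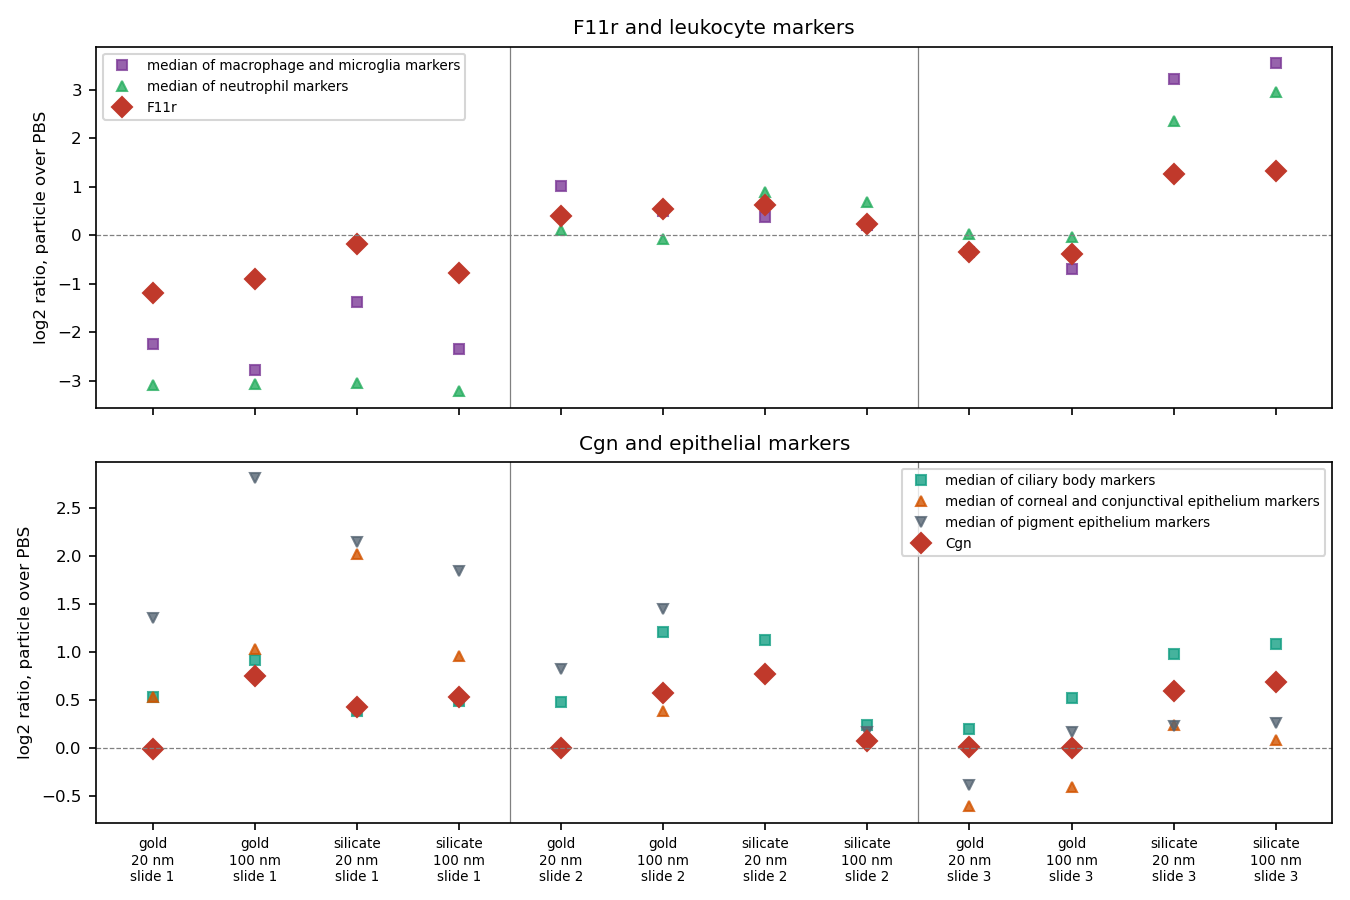
Log2 ratio of particle over PBS (vertical axes) on each array (horizontal axis) for F11r with the medians of the macrophage and microglia and the neutrophil markers (top), and for Cgn with the medians of ciliary body, corneal and conjunctival, and pigment epithelium markers (bottom). F11r is low on slide 1 and at 1.25 and 1.33 in both silicate arrays of slide 3, where the macrophage and microglia medians are 3.21 and 3.54.

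Ocln and Marveld2 are multi-pass membrane proteins of the MARVEL type, occludin in the junction between pairs of cells and tricellulin mainly where corners of cells meet. Their genes are direct neighbours on chromosome 13, with 0 protein-coding genes between them in the RefSeq table of GRCm38.p6. Ocln, read from the brighter of its probes, was close to background, with a level of 6.72 to 7.16 in PBS and 6.59 to 7.16 in particle channels. Its ratio was -0.14, -0.39 and 0.08 in gold 20 nm, 0.01, -0.21 and 0.29 in gold 100 nm, -0.16, -0.09 and 0.19 in silicate 20 nm and -0.03, -0.22 and -0.03 in silicate 100 nm. The groups overlapped, and the mean over all particles was -0.06, with an interval of -0.18 to 0.07 (adjusted p = 0.536, and 0.830 if slide is a random block). The other Ocln probe was not well above background in either channel of any array.

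Marveld2 gave 0.01, -0.28 and 0.27 in gold 20 nm, 0.21, -0.02 and 0.58 in gold 100 nm, 0.65, -0.13 and 0.20 in silicate 20 nm and 0.02, 0.07 and 0.22 in silicate 100 nm. It was above 0 on 9 of 12 arrays, with a mean of 0.15 and an interval of -0.02 to 0.32 (adjusted p = 0.228, and 0.691 with the random block). Slide 2 held all 3 of its negative values. There the PBS level was 8.01, above the 7.44 of slide 1 and the 7.24 of slide 3. Ocln and Marveld2 both had their lowest slide mean on slide 2, at -0.23 and -0.09.

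Tjp1, the scaffold ZO-1 that binds claudins and occludin to actin, varied least. Its SD over the 12 arrays was 0.10, smaller than that of most genes and above that of 12.1% of them. The ratio was 0.09, 0.12 and 0.05 in gold 20 nm, 0.15, 0.16 and 0.02 in gold 100 nm, 0.28, 0.08 and -0.02 in silicate 20 nm and 0.26, 0.21 and -0.04 in silicate 100 nm. It was above 0 on 10 of 12 arrays, and both exceptions were the silicate arrays of slide 3. The mean was 0.11 with a standard error of 0.04, a 1.08-fold difference (adjusted p = 0.0682, and 0.458 with the random block). Leaving out the silicate pair of slide 3 gave 0.15, with an adjusted p of 0.0201 in that fit without a block. A difference of this size is a small one and cannot be told apart from a dye effect of the probe.

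Cgn, cingulin, is an adaptor of the junction plaque that binds ZO proteins, actin and myosin and is typical of epithelia. Its ratio was -0.01, 0.00 and 0.01 in gold 20 nm, so the channels of these arrays were level. Gold 100 nm gave 0.75, 0.57 and 0.00 on slides 1, 2 and 3. Silicate 20 nm gave 0.42, 0.77 and 0.59, and silicate 100 nm gave 0.53, 0.08 and 0.68. The ratio lay within 0.02 of 0 on 4 of 12 arrays and at 0.4 or more on 7. The group means were 0.60 ± 0.17 in silicate 20 nm, 0.44 ± 0.39 in gold 100 nm, 0.43 ± 0.32 in silicate 100 nm and 0.00 ± 0.01 in gold 20 nm (SD, n = 3). The first 3 did not differ beyond their spread. Gold 20 nm lay below every array of silicate 20 nm and silicate 100 nm and overlapped with gold 100 nm. No share over all genes was taken for this.

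The mean of Cgn over the 4 groups was 0.37 with a standard error of 0.07, a 1.29-fold higher level (adjusted p = 0.00971 in the fit without a block). The random block gave an adjusted p of 0.354. Without the arrays of slide 1 or of slide 2 it was 0.0934 or 0.133. Leaving out the silicate pair of slide 3 gave 0.0323 at a mean of 0.33. The single group nearest the threshold was silicate 20 nm, at 1.51-fold (adjusted p = 0.0775), which passed with the replicate number as a block (adjusted p = 0.0496, in a fit that called 8.98% of all genes). Gold minus silicate was -0.11, -0.14 and -0.63 on slides 1, 2 and 3, with a mean of -0.29 and an interval of -0.62 to 0.03 (adjusted p = 0.881, and 0.371 with the random block). Between sizes, 100 nm minus 20 nm was 0.14, with an interval of -0.19 to 0.46.

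Epithelial markers from outside the neural retina were measured beside Cgn. The median of 10 ciliary body markers was 0.53, 0.48 and 0.20 in gold 20 nm, 0.92, 1.20 and 0.52 in gold 100 nm, 0.38, 1.13 and 0.98 in silicate 20 nm and 0.49, 0.24 and 1.08 in silicate 100 nm, above 0 on every array. All 10 were well above background in both channels on every array, with a summed level of 16.12 to 16.60 in PBS and 16.35 to 16.86 in particle channels. The median of 12 pigment epithelium markers ranged from -0.38 to 2.81, with summed levels of 14.46 to 16.37 in PBS and 15.71 to 17.25 in particle channels. It was highest on slide 1, at 1.35, 2.81, 2.14 and 1.84, where Cgn was at -0.01, 0.75, 0.42 and 0.53. The part of these epithelia in the Cgn ratio was not tested.

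**Figure D5:**
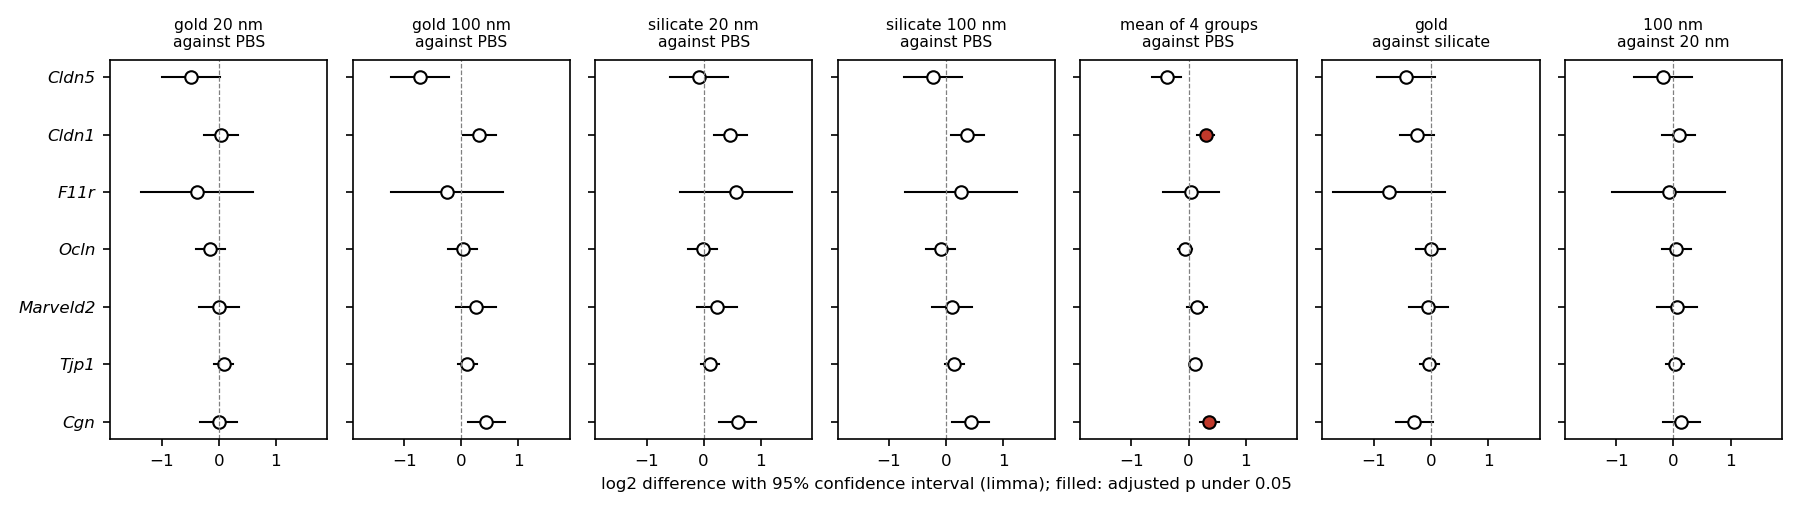
Log2 difference (horizontal axes) of the 7 genes (vertical axis) in 7 comparisons, as limma's estimate and 95% confidence interval in the fit without a block, filled where the adjusted p was under 0.05. Cldn1 and Cgn over the 4 particle groups are the only filled points.

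Material and size gave no call. In gold against silicate and in 100 nm against 20 nm, limma called 0% of all genes, with 5.23% and 0.993% at an unadjusted p under 0.05, and 0 members reached an unadjusted p under 0.05 in either. With the random block, 0.065% of genes were called for material and 0% for size, again with no member called, and 2 members had an unadjusted p under 0.05 for material, as 13.9% of all genes had. For size, the estimates ran from -0.19 in Cldn5 to 0.14 in Cgn. For material, 7 of 7 estimates were below 0, from -0.73 in F11r to -0.01 in Ocln, and the 3 nearest 0 (Ocln, Tjp1 and Marveld2) lay within 0.05 of it. The signs for Ocln and Marveld2 turned with the processed signals (0.04 and 0.08) and in the deposited value table (0.01 and 0.04). Without slide 1 the estimate was 0.05 for Marveld2 and 0.03 for Tjp1. That of Ocln was 0.07 without slide 2 and 0.06 without the silicate pair of slide 3.

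The sequences before the starts of Cldn5, Cldn1 and Cgn are shown because these are the genes whose levels were furthest from PBS over all particles. Each runs 5′ to 3′ on the gene's strand from 250 bases before to 50 after the start (RefSeq, GRCm38.p6), at chr16:18776597-18776896 on the plus strand for Cldn5, chr16:26371790-26372089 on the minus strand for Cldn1 and chr3:94786433-94786732 on the minus strand for Cgn. Capitals mark matches of the GC box, GGGCGG, on either strand.
Cldn5: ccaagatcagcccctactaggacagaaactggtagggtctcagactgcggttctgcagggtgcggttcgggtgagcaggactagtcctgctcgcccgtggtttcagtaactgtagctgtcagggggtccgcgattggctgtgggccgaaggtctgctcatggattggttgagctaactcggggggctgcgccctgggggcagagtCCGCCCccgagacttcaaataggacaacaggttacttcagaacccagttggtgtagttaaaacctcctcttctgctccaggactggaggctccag
Cldn1: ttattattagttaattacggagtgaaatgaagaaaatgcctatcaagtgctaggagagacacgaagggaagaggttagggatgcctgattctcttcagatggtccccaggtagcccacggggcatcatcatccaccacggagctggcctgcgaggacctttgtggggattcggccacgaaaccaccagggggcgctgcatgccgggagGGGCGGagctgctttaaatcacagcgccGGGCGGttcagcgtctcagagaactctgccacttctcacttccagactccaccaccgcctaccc
Cgn: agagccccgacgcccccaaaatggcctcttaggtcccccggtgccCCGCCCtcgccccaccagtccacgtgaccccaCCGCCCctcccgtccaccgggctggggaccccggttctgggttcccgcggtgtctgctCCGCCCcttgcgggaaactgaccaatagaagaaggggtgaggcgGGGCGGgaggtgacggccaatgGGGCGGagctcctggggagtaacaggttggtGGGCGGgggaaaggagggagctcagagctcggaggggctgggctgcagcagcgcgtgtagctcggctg
The same windows were found for all 7 genes, and all 7 hold a GC box in at least 1 of their listed starts, which 35.7% of 32851 promoters of 27025 genes do. Cgn holds 6, a number reached by 1.35% of all promoters, and has a GC content of 70.3% against a median of 52.7%. Cldn5 holds 1 and Cldn1 2. Also searched on both strands were TATAAA (the TATA box, in 13.6% of all promoters), CAGGTG (an E-box of the type bound by Snail proteins, 20.2%), AACAAT (a SOX core, 10.7%) and CCGGAA (an ETS core, 14.9%). None of these 4 occurs in the 3 windows printed. CAGGTG occurs in those of F11r, Ocln and Marveld2. No matches overlapped in the printed windows. These are matches of letters and were not measured as sites.

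Around the members, the claudin family was led by Cldn2, a pore-forming claudin of leaky epithelia. Of 20 other claudins listed, 12 were tested, and 4 were called higher over the 4 groups and 0 lower. The median of the 12 was 0.05. Cldn2 was above 0 on 12 of 12 arrays, as 3.82% of all genes were. It ranged from 0.30 to 2.08, with a mean of 1.16 (adjusted p = 0.000198). It was the one gene of the junction and transport lists that kept its call with the random block (adjusted p = 0.0443). The Cldn2 probe exceeded background clearly in 11 of 12 particle channels but in 4 of 12 PBS channels, 1 of 3 in each group, so the sizes rest on PBS signals most of which were near background. Like that of Cldn1, this probe was tested only because of its particle channels. By group Cldn2 rose in gold 100 nm (1.67, adjusted p = 0.00981, and 0.0459 with the random block) and in silicate 20 nm (1.41, adjusted p = 0.0177, and 0.0642 with the random block). Gold 20 nm had 0.73 and silicate 100 nm 0.84, with no call.

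The other claudins called over all particles were Cldn19 (0.29), Cldn22 (0.45) and Cldn10 (0.41), with adjusted p-values of 0.00240, 0.0119 and 0.0201 in that fit without a block and of 0.182, 0.206 and 0.341 with it. Cldn19, the claudin of human pigment epithelium, was above 0 on 12 of 12 arrays, as 3.82% of all genes were. It was called in silicate 20 nm as well (0.42, adjusted p = 0.0446, and 0.131 with the random block). Median ratios of the ciliary body list were above 0 on 12 of 12 arrays and those of the pigment epithelium list on 11, the exception being gold 20 nm on slide 3 (-0.38). Their part in these ratios was not tested.

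Of 32 other tight junction genes 30 were tested, with a median of -0.02. The scaffold Magi3 (0.18) and the polarity kinase Prkci (0.18) were called higher, and the polarity protein Crb3 (-0.20), the MARVEL protein Marveld3 (-0.38) and Sympk (-0.25) were called lower. All 5 calls were lost with the random block, with adjusted p-values of 0.477, 0.286, 0.322, 0.190 and 0.478 in that order. In the fit without a block Marveld3 was lower by 1.30-fold, below 0 on 11 of 12 arrays, while Ocln and Marveld2 of the same family were not called. Of 10 adherens junction genes tested, the adhesion molecule Nectin3 was called higher (0.60, adjusted p = 0.0237, and 0.332 with the random block), and Cdh5, the cadherin of endothelial contacts, was at -0.44 (adjusted p = 0.514).

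A list of 18 genes of transport and signalling in barrier endothelium was tested. Which cells expressed them in these pools was not measured. Of the 18, 4 were called higher and 0 lower. These were the glucose transporter Slc2a1 (0.35), the organic anion transporter Slco1a4 (0.33), and Fzd4 (0.32) and its partner Tspan12 (0.29), which receive the norrin signal that maintains the retinal barrier. Tspan12 and Slco1a4 were above 0 on 12 of 12 arrays, as 3.82% of all genes were. The median of the 18 was 0.03, with 12 above 0. The lowest means were those of Slc38a5 (-0.65), Sox18 (-0.33) and Sox17 (-0.26), with adjusted p-values of 0.131, 0.415 and 0.0792. Slc38a5, with the largest difference of the list, was below 0 on 10 of 12 arrays. Plvap, a protein of leaky vessels, had a mean of -0.08. With the random block, the adjusted p of the 4 called genes lay between 0.114 and 0.204. These lists thus held 4 of 12, 5 of 30, 1 of 10 and 4 of 18 tested genes called, beside 15% of all genes.

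For each member, the 3 most similar patterns were sought among 15454 genes with a symbol, by the root mean square difference of the log2 ratios over 12 arrays after each gene's mean was removed. For Cldn5 they were 2310022B05Rik (0.117), Mast4 (0.150) and Ttyh3 (0.152), against an SD of Cldn5 itself of 0.44. None of these is among the endothelial markers. Among the 3 nearest to F11r were Rab3d (0.192) and Niban2 (0.200). For Cgn the nearest were Scube3 (0.149), Myl10 (0.162) and Heph (0.169), and for Cldn1 they were Palmd (0.0938), Scara5 (0.112) and Slc22a5 (0.134). Ocln was nearest to Golm2, Dmxl1 and Gulp1, at 0.0756 to 0.0848. Marveld2 was nearest to Rcn2, Ovca2 and Rhobtb3, at 0.138 to 0.157, and Tjp1 to Ercc4, Pwwp3a and Pla2g2c, at 0.0453 to 0.0543. No member was among the nearest of another. These are likenesses over arrays that share slides and, as assumed here, PBS material.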

How the data were processed

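RNA of particle tubes (Cy5) and PBS tubes (Cy3) was hybridised on 12 two-colour Agilent arrays. The deposited scanner files hold spot intensity. Per the file headers the software was Agilent Feature Extraction 11.0.1.1, whereas the submitters' processing notes give 9.3.2.1. A deposited value table gives Cy5 over Cy3 as a log2 ratio. That scale and direction follow from a regression of its columns on the log10 ratio in the deposited scanner files, with slopes of 3.30 to 3.32 and correlations of 0.998 to 0.999. Column medians on slides 1, 2 and 3 were 0.0163, 0.0328 and 0.0449 (gold 20 nm), 0.0560, 0.0478 and 0.0448 (gold 100 nm), 0.0870, 0.0476 and 0.0910 (silicate 20 nm) and 0.0744, 0.0477 and 0.114 (silicate 100 nm). The centring behind them is not given in the sources used here.

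Median signals were background-corrected (normexp, offset 50) and loess-normalized within arrays, with the 1377 control spots at weight 0. Outlier spots (149 to 257 per array) were left out, and 0 spots were saturated. Single-channel levels were taken after Aquantile normalization. Spots of a probe were averaged. Symbols were assigned by RefSeq accession. A probe was kept if well above background in 1 channel on all 3 arrays of a group, and the brightest stood for its gene, which left 23063 genes, with 36 lacking a value on an array. Ratios were fitted with limma 3.58.1 in R 4.3.3 (data.table version 1.17.8) as 4 group means, tested two-sided at an adjusted p of 0.05. The fit was tested on simulated data. The number of arrays limits the precision.

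The replicate number is the slide, as the file headers show, so it pairs the arrays. The slide correlation estimated for the random block was 0.494. A group always had the same place, and place cannot be told apart from group. Which PBS tube was on which array is not given in the sources used here, and the 4 arrays of a slide were taken to share 1. The members and the gene lists were chosen with earlier results of these data known. Named were all members, the called genes of each junction, transport and endothelial list, the 3 nearest genes of each member (1 of them is not reported here), and markers where a member moved with a list. Cdh5, Pecam1, Plvap, Vwf, Slc38a5, Sox17 and Sox18 were added as markers or after their values were seen. Alternatives covered background correction, scaling, filter, probe choice, the value table, slide as a block and left-out arrays.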

Additional observations from a re-analysis of the deposited data

How the results depend on the processing

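Of 679 values of members under 14 alternatives to the fit without a block, 658 kept their direction or moved within 1 SD and kept their side of the threshold, 9 lost it and 12 passed it, and 42 values without a call changed sign within 1 SD. The count of members past the threshold over the 4 particle groups, 2 in the fit reported, was 1 when probes had to be well above background in both channels (Cldn1 then left the test) and 4 in the value table. It was 0 with slide as a random block and 4 with the replicate block, which also called 1 member in gold 100 nm (Cldn5) and 1 in silicate 20 nm (Cgn). Leaving out each replicate gave 0 to 4. Leaving out both silicate arrays of replicate 3 gave 4, and 0 when this was joined with the random block, a setting chosen after seeing the data. In the other 4 comparisons every alternative gave 0 members. Cldn5 passed over all particles without background correction (adjusted p = 0.0490), with processed signals (0.0222) and in the value table (0.0489). The counts over all genes ranged from 7 to 1040 for gold 20 nm (162 in the fit reported), 4 to 1575 for gold 100 nm (228), 7 to 2072 for silicate 20 nm (484), 5 to 948 for silicate 100 nm (228), 294 to 8087 over all particles (3448), 0 to 15 for material (0) and 0 to 0 for size (0). The share of called genes that were higher in these 4 groups, in that order, was 90.7%, 84.6%, 76.2% and 86.4%, then 82.7%, 72.7%, 50.1% and 63.4% with processed signals and 93.4%, 93.3%, 87.6% and 93.5% with median centring. Signals near background limit Cldn1 and Ocln. The cause of these differences was not tested.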
